A study of Drosophila melanogaster with 3 samples.

Results

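The genes described are 6 that encode core proteins of small nucleolar ribonucleoproteins (snoRNPs): Fib, Nop56, nop5 and hoip of the box C/D particles, and Nop60B and NHP2 of the H/ACA particles. They are 6 of the 13945 protein-coding genes on the chromosome arms analysed, and they were chosen by their measured peaks, with peak signals and ranks already known, so their strength is given as a description with no test. Binding was measured by chromatin immunoprecipitation and sequencing with an anti-GFP antibody in Drosophila melanogaster whole embryos of 0 to 14 hours, mixed sex, of the transgenic strain CG17186-GFP, which stably expresses CG17186 with GFP at its C-terminus. All 3 samples were biological replicates of this 1 group, and no untagged or GFP-only sample was analysed here. The promoter that drives the transgene and the level of the tagged protein beside the native one are not given in the labels. A peak is an interval of the deposited lists, its summit the deposited point of highest enrichment, and its signal the unitless value of the authors' peak caller. The lists held 30000, 26139 and 30000 peaks in replicates 1, 2 and 3 and 23428 in the list from the pooled replicates, of which the 3814 strongest formed the reproducible set. The read depth is unknown.

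Small nucleolar RNAs guide chemical modification of ribosomal RNA in the nucleolus. Box C/D RNAs direct ribose methylation by a particle of fibrillarin (Fib, the methyltransferase), Nop56, the NOP58 homologue nop5 and the RNA-binding protein hoip, while H/ACA RNAs direct pseudouridylation by a particle built on the pseudouridine synthase Nop60B (dyskerin in humans) with NHP2, Nop10 and Gar1. In flies several snoRNAs are cut from introns of genes for nucleolar proteins.

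The gene nop5 stood apart from the other genes because its peak was among the strongest of the series, with a pair of summits that each lay beside the word AACAGCAC. The sequences under these summits are shown first, with those at NHP2, at Nop56 and between hoip and its neighbour Pka-C1, where this word was absent from the printed window. All are dm6, plus strand, read from the RefSeq release 6 assembly, cut where an annotated exon began, and AACAGCAC or its reverse complement is in capitals.
nop5, summit at its transcription start site (TSS), chr2L:6918744-6918831, summit at base 13: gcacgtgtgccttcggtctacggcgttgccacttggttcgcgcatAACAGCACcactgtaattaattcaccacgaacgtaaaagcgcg
nop5, upstream summit, chr2L:6919251-6919401, summit at base 76: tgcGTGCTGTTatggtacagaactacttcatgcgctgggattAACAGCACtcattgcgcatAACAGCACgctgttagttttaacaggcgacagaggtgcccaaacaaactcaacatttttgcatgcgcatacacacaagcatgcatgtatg
NHP2, chr3L:14802204-14802354, summit at base 76: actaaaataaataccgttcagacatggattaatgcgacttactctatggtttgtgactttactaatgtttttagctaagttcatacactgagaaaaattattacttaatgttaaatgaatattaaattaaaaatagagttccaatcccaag
Nop56, chr3R:22421069-22421160, summit at base 40: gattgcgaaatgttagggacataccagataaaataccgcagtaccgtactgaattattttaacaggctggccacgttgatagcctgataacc
hoip, summit nearest to Pka-C1, chr2L:9699311-9699461, summit at base 76: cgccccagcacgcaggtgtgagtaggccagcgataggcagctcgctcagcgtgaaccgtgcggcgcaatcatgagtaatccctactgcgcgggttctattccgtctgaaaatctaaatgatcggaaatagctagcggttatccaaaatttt

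AACAGCAC lay within 50 bp of 2 of the 8 summits assigned to the 6 genes, both in the same peak at nop5. Over the whole reproducible set it lay within 50 bp of 75 of 3814 summits (1.97%). The nop5 TSS summit had 1 copy, which began 33 bp from the summit. The upstream summit had 2 copies within 50 bp, beginning 33 and 14 bp before it on the plus strand, and another on the minus strand just beyond that window. In all the nop5 peak of 1369 bp held 4 copies, or 2.92 per kb, against 0.0396 per kb over the 6 arms. The word and the gene were both chosen with earlier results of these data known. Nothing is therefore read from this contrast or from the shares above. Only 13 reproducible summits, the upstream nop5 summit among them, had 2 or more copies within 50 bp, and all of these ranked between 1 and 46. For the same reason nothing is read from these ranks.

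The longest run of bases common to the nop5 windows printed above was gcgcatAACAGCAC, 14 bases that include the word. This run was picked after the sequences were seen and carries no test. It occurred 5 times on the 6 arms, each time 4 to 48 bp from a reproducible summit. Of these copies 2 were at nop5, 1 under each summit. The others were nearest to ArfGAP3 (pooled signal 6739, rank 17), to VhaAC39-1, which encodes a subunit of the vacuolar proton pump (5564, rank 27), and to lsn (5155, rank 31). The nop5 summits themselves ranked 30 and 38.

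A summit of the reproducible set lay no more than 1000 bp from a TSS for 5 of the 6 genes, all but Nop56. The same rule held for 4241 of 13945 coding genes (30.4%). In the relaxed lists all 6 genes had such a summit, as did 61.8% of coding genes in the pooled list and 65.0%, 62.0% and 65.1% in replicates 1, 2 and 3. Because the genes were chosen with these peaks known, nothing is read from the difference. The pooled list was deposited as peaks and background, the input to the reproducibility threshold, so an entry in it need not be an enriched site. Replicate lists also held weak entries, such as that of Nop56 in replicate 2, with a −log10 q of 0.0619. The tops of the range differed far more than the counts. The strongest pooled signals were 5175 at nop5, 259.8 at Nop60B, 244.9 at hoip, 185.2 at Fib, 125.1 at NHP2 and 96.1 at Nop56, against a median of 167.8 in the reproducible set.

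**Figure D1:**
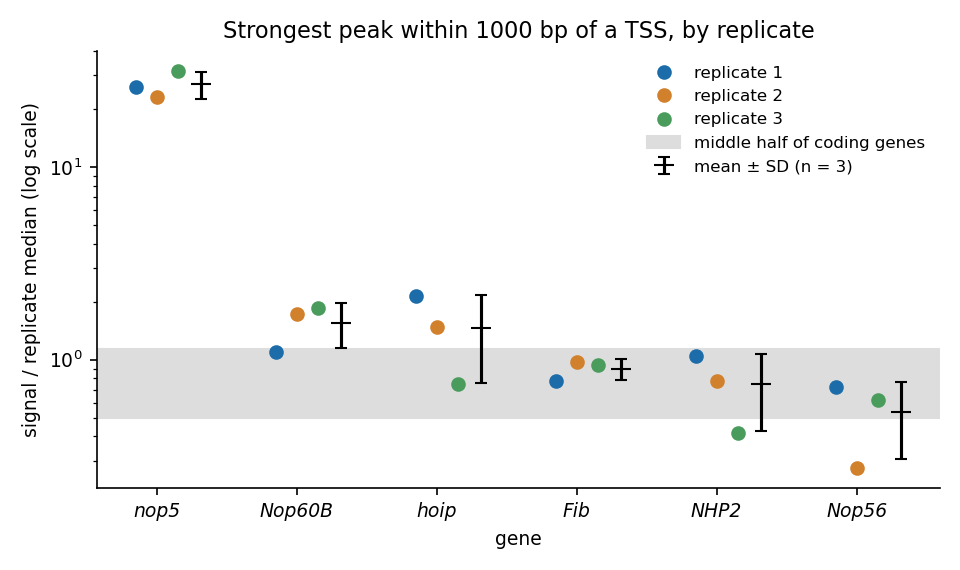
Signal of the strongest peak within 1000 bp of a TSS of each gene, divided by the replicate's median over shared peaks (log scale), with 1 point per replicate, the mean ± SD (n = 3), and a grey band from 0.497 to 1.14 that holds the middle 50% of coding genes with a peak in every replicate. The nop5 points lie between 23.1 and 31.6, above every point of the other genes, which lie between 0.274 and 2.15.

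To compare replicates, a relative signal was formed, in which the median of the reproducible peaks that all 3 replicate lists share is set to 1 in every replicate. For nop5 it was 26.1, 23.1 and 31.6 in replicates 1, 2 and 3, with a mean of 27.0 ± 4.33 (SD, n = 3). This was higher than in 99.2% of the 6918 coding genes that had a peak in all 3 replicates, whose median was 0.754. For Nop60B it was 1.09, 1.73 and 1.85 (mean 1.56 ± 0.408), and for hoip 2.15, 1.47 and 0.747 (mean 1.46 ± 0.700). The replicates ordered these 2 genes differently, with hoip above Nop60B in replicate 1 and below it in replicates 2 and 3. Fib had 0.774, 0.976 and 0.942 (mean 0.897 ± 0.108). NHP2 had 1.05, 0.774 and 0.415 (mean 0.747 ± 0.319) and Nop56 0.720, 0.274 and 0.616 (mean 0.537 ± 0.233), close to or below the median of those 6918 genes. The lowest values, of NHP2 in replicate 3 and Nop56 in replicate 2, had −log10 q of 1.01 and 0.0619. Both were under the lowest of the reproducible set, 2.83.

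The order of the means was nop5, Nop60B, hoip, Fib, NHP2 and Nop56. The nop5 value was higher than that of each other gene in 3 of 3 replicates and 17.3 to 50.2 times as high by the mean. Neighbours further down did not differ beyond their spread. The difference between Nop60B and hoip was 0.105 and that between hoip and Fib 0.558, both under the SD of hoip. Fib and NHP2 differed by 0.151 and NHP2 and Nop56 by 0.210, both under the SD of NHP2. Nop60B was above Fib, NHP2 and Nop56 in 3 of 3 replicates, and so was Fib above Nop56. In replicate 1 the Nop60B value (1.09) came from a summit nearest to the TSS of its neighbour mRpS17. The replicate 1 summit nearest to Nop60B had 1.00, below NHP2 at 1.05. hoip was above NHP2 (difference 0.708, against an SD of 0.700 for hoip) and above Nop56 (difference 0.918) in 3 of 3 replicates.

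**Figure D2:**
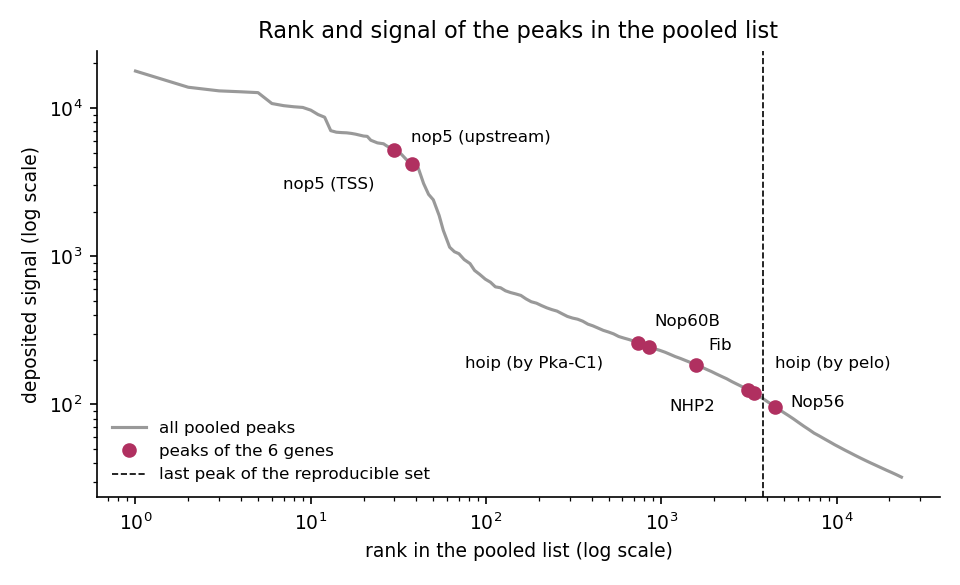
Deposited signal against rank in the pooled list, both on log scales, with the peaks of the 6 genes as red points and the last rank of the reproducible set (3814) as a dashed line. The nop5 summits at ranks 30 and 38 sit just before the curve drops steeply, and Nop56 at rank 4473 lies beyond the line.

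The box C/D genes span this whole range, and nop5 is at its top. nop5 (FBgn0026196) lies on the minus strand of 2L from 6916753 to 6918743, inside the first intron of x16, which encodes a splicing factor and runs in the same direction. Its reproducible peak spanned 6918345 to 6919713 and carried summits at 6918756, 13 bp upstream of the TSS, and at 6919326, 583 bp upstream. In replicates 1, 2 and 3 the upstream summit had signals of 1694, 1141 and 2074 and ranks of 33, 33 and 30. The TSS summit had signals of 1300.5, 966.4 and 1496 and ranks of 42, 42 and 41. The upstream summit was the stronger in every replicate, by 1.29 ± 0.103 times (SD, n = 3). Its position varied by 7.23 bp (SD) between replicates and that of the TSS summit by 5.69 bp. The distance between them was 585 ± 12.1 bp.

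Neither nop5 summit lay near another annotated TSS than those of nop5 and x16. The upstream summit was 884 bp downstream of the x16 TSS, and both lay in the x16 intron. In the reproducible set 15 intervals carried more than 1 summit, and in 6 of them, nop5 included, every summit ranked among the top 100. The genes with the most similar mean relative signal over the 3 replicates were UGP, which makes UDP-glucose (27.9 ± 5.54), and crm (27.5 ± 0.569) above nop5, then x16 (26.96 ± 4.33), whose value comes from the same peak, and qkr58E-1 (24.9 ± 0.881) below. For the weaker genes the order is crowded: apart from genes that share their peaks, those next to Nop60B were Herp and r2d2 (both 1.56 ± 0.279) and prage (1.56 ± 0.631), and those next to Fib were Rab39 (0.898 ± 0.0979), HINT1 and colt (both 0.897 ± 0.231).

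Fib, Nop56 and hoip also shared their summits with neighbouring genes. Fib (FBgn0003062, minus strand of 2R, 23072909 to 23074725) had its summit at 23074772, 47 bp upstream of its TSS and 51 bp upstream of the divergent gene CG3085, whose TSS is 98 bp away. Its signals in replicates 1, 2 and 3 were 50.2, 48.2 and 61.7, with ranks of 2925, 1922 and 2098, and the replicate summits lay 82, 62 and 33 bp upstream of the Fib TSS. The 3 replicates thus placed 1 modest peak between the same pair of starts.

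Nop56 (FBgn0038964, minus strand of 3R, 22419095 to 22421068) has the same layout, with mats, which encodes a cofactor of the Warts kinase in Hippo signalling, starting 93 bp away on the other strand. The pooled summit at 22421108 lay 40 bp upstream of Nop56 and 53 bp upstream of mats. Its pooled signal of 96.1 and −log10 q of 2.41 were under the lowest values in the reproducible set, 109.3 and 2.83. The replicate signals were 46.6, 13.6 and 40.4, with ranks of 3280, 19299 and 4388, so replicate 2 was far below the others. The M1BP word GGTCACACT lay just outside the 50 bp window of this summit.

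hoip (FBgn0286786, plus strand of 2L, 9699791 to 9700459) had 2 reproducible peaks, and the nearest TSS of each belonged to another gene. The stronger summit, at 9699386, was 405 bp upstream of hoip and 89 bp upstream of Pka-C1, the catalytic subunit of protein kinase A, on the other strand. Its replicate signals were 139.2, 72.7 and 49.0, with ranks of 329, 843 and 3241. The weaker summit, at 9700709, was 880 bp downstream of a hoip TSS and 101 bp upstream of pelo, a ribosome rescue factor gene. Its signals were 55.0, 26.8 and 32.7, and its pooled signal 118.9 (rank 3397). A TATAAA word lay within 50 bp of it, as of 510 of 3814 reproducible summits (13.4%). Within 250 bp of a hoip TSS the reproducible set had no summit. Small peaks there were listed only in replicate 1 (33.4, 242 bp upstream) and replicate 3 (24.1 and 16.1, 30 bp upstream and 138 bp downstream).

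**Figure D3:**
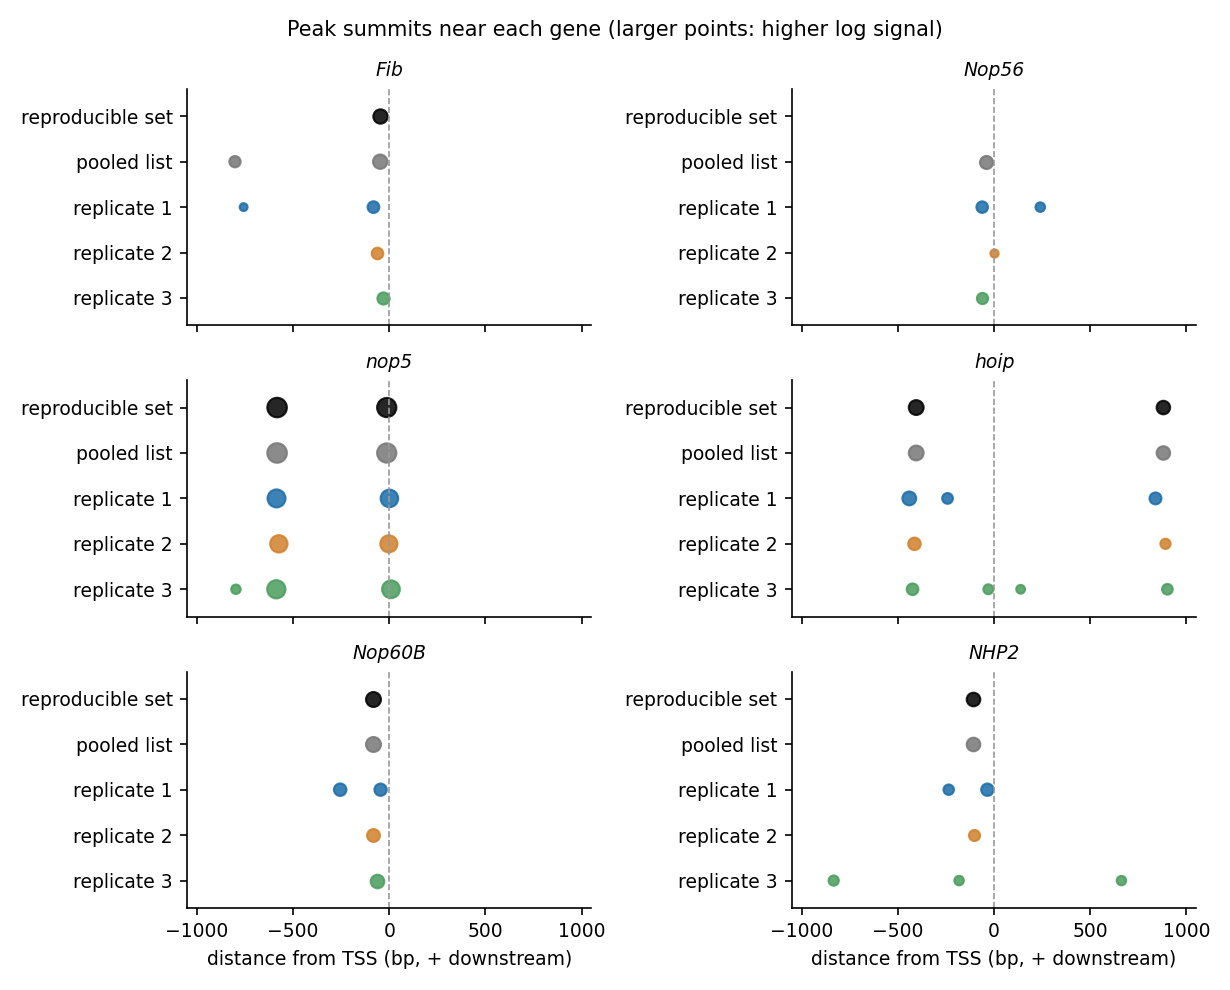
Distance of each peak summit from the nearest TSS of the gene (bp, positive in the direction of transcription) in the reproducible set, the pooled list and the 3 replicates, with larger points for higher log signal. The nop5 summits near -583 and 0 recur in every list, Fib, Nop56 (absent from the reproducible set) and Nop60B have a summit just upstream of the TSS, and the hoip summits lie on both sides of the gene.

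Among the H/ACA genes, Nop60B (FBgn0259937, plus strand of 2R, 24174877 to 24186343) had the strongest peak. Its reproducible summit at 24174792 lay 85 bp upstream of the TSS and 351 bp upstream of the divergent gene mRpS17 of the mitochondrial ribosome, with a pooled signal of 259.8 and rank 737. The replicate signals were 71.0, 85.6 and 121.5, with ranks of 1500, 590 and 444. In replicate 1 the signal was split between summits 255 bp (71.0) and 45 bp (65.0) upstream, while replicates 2 and 3 had 1 summit each, 86 and 64 bp upstream. The summit 255 bp upstream, which gave the relative signal of Nop60B in replicate 1, was nearest to the TSS of mRpS17. The DREF word TATCGATA and the overlapping word ATCGATAG lay just beyond the 50 bp window, beginning 52 and 53 bp from the summit towards the gene.

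NHP2 (FBgn0029148, minus strand of 3L, 14801328 to 14802168) encodes the H/ACA protein related to hoip. Its reproducible summit at 14802279 was 111 bp upstream of the TSS, with no TSS of another gene within 1000 bp, a signal of 125.1 and rank 3139. In replicates 1 and 2 the strongest peak was 35 and 107 bp upstream, with signals of 68.1 and 38.2. In replicate 3 the strongest was 834 bp upstream (27.2) and nearest to the gene gnu, and the peak that overlapped the reproducible one had a signal of 20.8 and rank 13641. The position of the strongest NHP2 peak thus varied most of the 6, with an SD of 442.0 bp between replicates.

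Of the other words searched (CANCNCTA, CAGGGCTG and CAGCTG, on both strands), none lay within 50 bp of the 8 summits, nor did TATCGATA, ATCGATAG or GGTCACACT. Over all reproducible summits these words lay within 50 bp in 9.31%, 2.36%, 8.39%, 7.94%, 8.15% and 4.93%, in the order named, so 0 of 8 is near the background. No match says only that these letters are not in that window.

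The reproducible summits lay outside the snoRNA genes that these genes hold. The annotation places 9 snoRNA genes inside the members on the same strand, of which 7 are in Nop60B, 1 is in Fib and 1, snoRNA:nop5-x16-a, is in nop5. Those in Nop60B, except snoRNA:Psi18S-1820, lie in an annotated exon of Nop60B, and those in Fib and nop5 do not lie in an exon of their host. The reproducible set had no summit inside any of the 6 gene bodies. In the relaxed lists the Nop60B body, 11467 bp long, held 1 summit beyond 1000 bp of the TSS in the pooled list (36.6) and 1 in replicate 1 (17.3), and none in replicates 2 and 3. The pooled summit was 114 bp from the middle of snoRNA:Or-CD9b and 120 bp from that of snoRNA:Or-CD9a. Near the snoRNA gene of Fib replicates 1 and 3 listed weak peaks (16.7 and 17.9), 228 and 265 bp from its middle.

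Few peaks lay near the edge of the 1000 bp window. The farthest strongest peak inside it was the replicate 3 peak of NHP2 at 834 bp, and the weaker hoip summit at 880 bp was the farthest inside in the reproducible set. Just outside, replicates 1 and 3 had peaks 1055 and 1092 bp downstream of Fib (16.7 and 17.9). Replicate 3 had peaks 1175 bp downstream of hoip (14.1) and 1289 bp upstream of Nop56 (14.1), and replicate 2 had one 1363 bp upstream of nop5 (13.8).

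Of 22 other genes, the 2 remaining H/ACA core genes and genes for snoRNP assembly, the U3 particle and processome, and U4 partners of hoip, 14 had a reproducible summit by the same rule, or 63.6%, against 30.4% of coding genes. The lists were written with earlier results known, and 2 further names, Mpp10 and Imp3, matched no gene symbol in the annotation. Of these 14 summits 13 also lay within 1000 bp of a TSS of another coding gene. When a summit counted only for its nearest coding TSS, 9 of 22 had one, against 20.9% of coding genes. The 18 genes with a peak in every replicate had relative signals from 0.311 to 3.32, with a median of 0.787 against 0.754 over all 6918 such genes.

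Of the remaining H/ACA core genes, Nop10 had a reproducible peak 80 bp upstream of its TSS (pooled signal 161.3; relative signal 0.969 ± 0.130, SD, n = 3). Gar1 had none, and its strongest pooled peak had a signal of 39.4 (relative signal 0.311 ± 0.0220). Of 9 genes for assembly and nucleolar chaperones, 6 had a reproducible peak. The strongest was at rept, an AAA+ ATPase of the R2TP assembly complex, with a pooled signal of 600.5 (rank 125) and a relative signal of 3.07, 3.33 and 3.57 in replicates 1, 2 and 3. Its summit also lay near mRpL21. pont, the partner ATPase of rept, had 144.8, and Pih1D1 and spag, of the same complex, 184.7 and 174.8. Nopp140, a nucleolar chaperone of snoRNPs, had 226.7 and coil, the Cajal body protein, 112.4. Nufip (85.2), CG10055 (69.6) and CG10341 (34.1) were below the reproducible set.

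Of 8 matched genes of the U3 snoRNP and the small subunit processome, which process the precursor of the small-subunit rRNA, 4 had a reproducible peak. These were U3-55K (180.1), kz (168.1), CG11920 (122.4) and l(3)72Dn (119.3). The other 4 included bys (109.04, just under the weakest reproducible signal of 109.3), Mat89Ba (60.3) and wcd (44.5). hoip also binds U4 RNA of the spliceosome, and the 3 partner genes U4-U6-60K (147.4), Prp3 (130.2) and Prp31 (112.3) each had a reproducible peak. The highest signal among these 22 genes was that of rept, 600.5, against 4191 and 5175 at the nop5 summits.

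**Figure D4:**
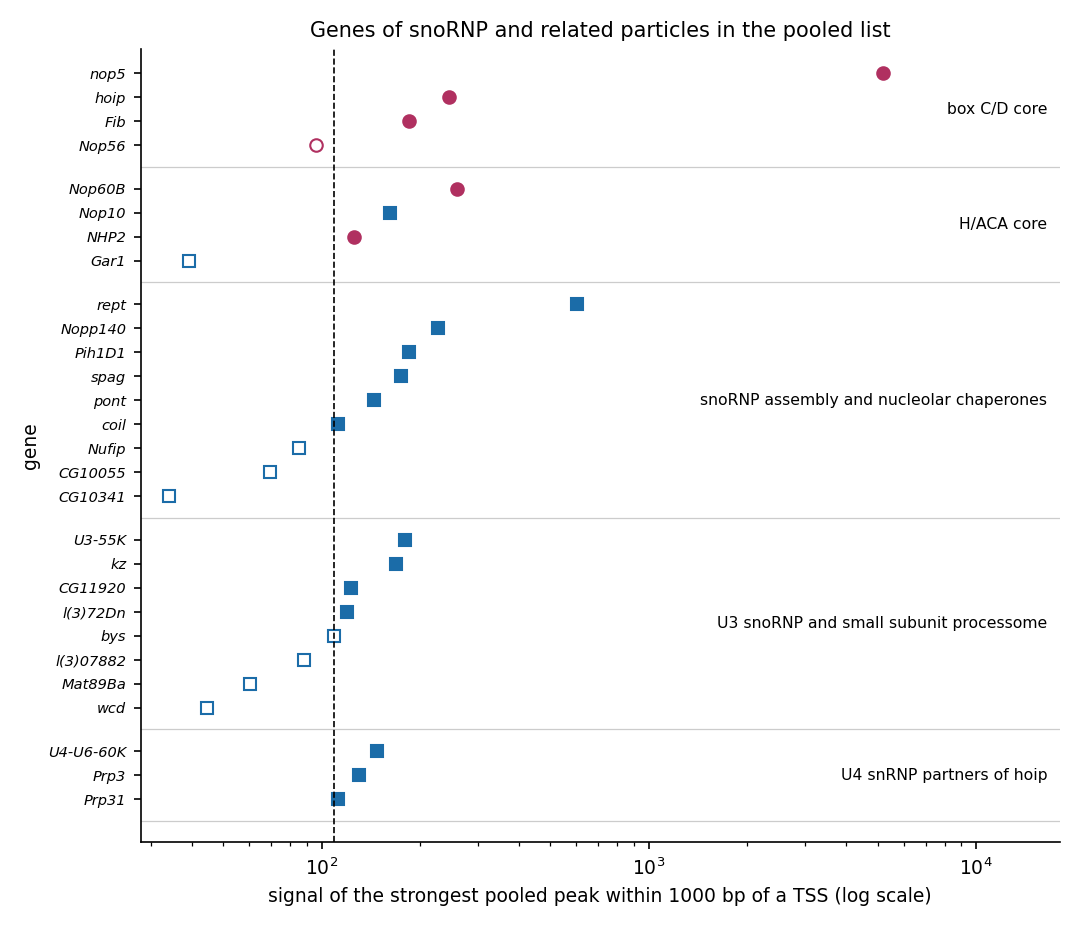
Signal of the strongest pooled peak within 1000 bp of a TSS (log scale) for the 6 genes (red circles) and the 22 related genes (blue squares), filled where the gene had a reproducible summit, with a dashed line at the weakest reproducible signal, 109.3. nop5 lies at 5175 and the next gene, rept, at 600.5.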

How the data were processed

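The authors deposited peak lists of 10 columns for dm6 and dm3, of which the dm6 lists were used. Relaxed lists were called on each replicate and on the pooled replicates against a control alignment, and the reproducible set was thresholded from them by irreproducible discovery rate, per the deposited read-me tables. No source used here names the aligner, the caller, their versions or the threshold. Peak signal (column 7) and −log10 q-value (column 9) are the authors' deposited values, and no read counts were given, so depth is unknown. Chromatin was sheared to 200 to 800 bp, per the labels.

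Peaks were assigned to a gene when the summit (start plus column 10) lay within 1000 bp of any TSS in Ensembl release 115. The reference arms were longer than the last peak on each. In each replicate the strongest such peak was divided by the median, over reproducible peaks overlapped by at least 1 bp in all 3 lists, of the strongest overlapping signal (64.8, 49.4 and 65.6 for replicates 1, 2 and 3). Means and SDs are over 3 replicates. Both strands were searched for 8 words up to 50 bp from a summit. Named genes were the 6 genes, genes with a TSS near their summits, snoRNA genes inside them, written pathway lists, and the 2 genes above and below each in order of mean relative signal. ArfGAP3, VhaAC39-1 and lsn, next to the shared 14-base run, and gnu were named after their values were seen. The 6 genes, the lists and the words were chosen with earlier results of these data known, so no test was run. The assignment rules were tested on simulated peaks. Python 3.11.15 with pandas 2.3.3 was used.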

Additional observations from a re-analysis of the deposited data

How the results depend on the processing

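No paired analysis was possible because the series has 1 group. Of 86 alternative values, 74 stayed within 1 SD (or within 1.5 times for counts) and 12 moved. The 74 include all values with 1 replicate left out, which could not count as moved. With n = 3, leaving out 1 replicate always shifts a mean by less than 1 SD, so these values say nothing about stability. Dividing by the median of all peaks of a replicate gave higher relative signals, 91.8 for nop5, 5.21 for Nop60B, 5.05 for hoip, 3.02 for Fib, 2.58 for NHP2 and 1.88 for Nop56, in the same order. With a window of 500 bp the nop5 value was that of its TSS summit, 20.8. Leaving out 1 replicate gave relative signals of 24.6 to 28.9 for nop5, 1.41 to 1.79 for Nop60B, 1.11 to 1.81 for hoip, 0.858 to 0.959 for Fib, 0.594 to 0.912 for NHP2 and 0.445 to 0.668 for Nop56. It gave mean summit offsets of -586.5 to -580.0, -170.5 to -75.0, -432.5 to -419.0, -72.0 to -47.5, -470.5 to -71.0 and -62.5 to -32.0 bp in the same order of genes. Without replicate 3 the relative signal of hoip (1.81) was above that of Nop60B (1.41), and that of NHP2 (0.912) above that of Fib (0.875). Without replicate 1 or replicate 2 the order of the 6 genes was unchanged. Replicate 3 decides the NHP2 offset, which is -71.0 bp without it, and replicate 1 that of Nop60B, -75.0 bp without it. The number of the 6 genes with a peak was 4 within 250 bp (no hoip or Nop56; 24.7% of coding genes), in the stronger 50% of the set (no NHP2 or Nop56; 17.1%) and by nearest coding TSS (no hoip or Nop56; 20.9%). The strongest 3814 peaks of replicates 1, 2 and 3 gave 6, 5 and 4, against 29.8%, 29.4% and 29.0% of coding genes. By nearest coding TSS no relative signal could be given for Fib, Nop56 or hoip. The related genes with a peak fell from 14 to 9 of 22 by nearest coding TSS, and to 6 in the stronger 50% of the set (17.1% of coding genes). With motif windows of 100 bp TATCGATA, ATCGATAG and GGTCACACT were each at 1 of the 8 summits, against 12.2%, 11.8% and 7.92% of all reproducible summits. Taking the replicate peak that overlaps the reproducible or pooled peak, and the rule for other genes on single replicates, were added after the data were seen.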

Other observations

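Genes that hold a snoRNA gene on their own strand were examined after the values above were seen, without a test. Of 84 such coding genes, 64 (76.2%) had a reproducible summit within 1000 bp of a TSS, against 30.4% of all coding genes. The 84 include Fib, nop5 and Nop60B, which were chosen by their peaks. A summit here counted for every gene with a TSS within 1000 bp, and no count by nearest coding TSS is given. Whether the difference belongs to the snoRNA genes was not tested.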
